A study of Mus musculus with 9 samples.

Results

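The genes described here encode the presynaptic vesicle release machinery, the proteins that load, dock, prime and fuse synaptic vesicles at nerve terminals. The set held 40 genes, chosen by name from 4 functional classes, with earlier results of these data known. It comprised 8 SNARE proteins and partners, 9 calcium sensors and fusion clamps, 11 active zone proteins and 12 vesicle proteins. All 40 were among the 17187 gene symbols of the table, and all 40 passed the filter of a mean of at least 0.5 FPKM. FPKM is fragments per kilobase of transcript and 1e6 fragments, a level per transcript length.

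Poly(A) RNA came from tissue punches of the medullary brainstem of wild-type mice, taken so as to include the raphe nuclei, 3 weeks after stereotactic injection of adeno-associated virus into the cortex. The virus was AAV2-GFP in 4 libraries, the control, and AAV2-HIL6 in 5 libraries, whose treatment label reads AAV2-HIL6-GFP. hIL-6, hyper-interleukin-6, an engineered fusion of interleukin-6 and its soluble receptor, signals through gp130 and STAT3. GFP libraries 1 to 3 and hIL-6 libraries 1 to 3 made up batch 1, while batch 2 consisted of GFP library 4 with hIL-6 libraries 4 and 5; what a batch was is not said. Both groups had received a virus, so no library shows the brainstem without one. The labels state no age, promoter or injury. They leave unsaid whether libraries are separate animals, and p-values then reflect only the spread between libraries, which may be technical.

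A synaptic vesicle fuses when Snap25 and syntaxin on the plasma membrane zip together with a VAMP, or synaptobrevin, on the vesicle. Synaptotagmins sense the calcium that enters with an action potential, complexins hold the assembled complex ready, and the Munc13 and RIM proteins of the active zone prime and place vesicles beside calcium channels. Fast synapses of the hindbrain are known for Syt2 and Vamp1, where the forebrain relies more on Syt1 and Vamp2.

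Depth was read from the spacing of low values, which lay at whole multiples of a step within a tolerance of 0.05 for 96.9% to 98.0% of the values used. On this relative scale the libraries held 31.5 to 46.9 in units of 1e6 fragments. The lowest member, Unc13b, would then rest on 102 to 186 fragments for a transcript of 2000 nt, a counting error of 7.33% to 9.92%; intervals and errors of this kind cover counting only. Log2 levels of any pair of libraries correlated at 0.97 to 0.99, and no pair was identical. The labelled tissue had its serotonergic markers: Tph2, the enzyme of serotonin synthesis in neurons, was at 11.9 FPKM or more in every library. hIL-6 library 1 and GFP library 2, both of batch 1, stood apart, with Tph2 at 11.9 and 21.7 FPKM against at least 29.8 FPKM in the others. They also held the most Slc17a7, a vesicular glutamate transporter gene, at 97.3 and 39.2 FPKM against 7.60 to 30.8 FPKM. GFP library 1 and hIL-6 library 4 held the most growth hormone RNA, a pituitary product, with Gh at 40.2 and 18.5 FPKM against 0 to 4.53 FPKM. Selected results are also given without these libraries.

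Promoter windows were read to show the sequence at annotated starts of these genes. RefSeq windows on GRCm38.p6, the assembly mm10, run from 250 bases before a start to 50 bases after it, and 43 windows belonged to 33 members. The letters TTCAGCACC, the left part of the RE1 element to which the neuronal repressor REST binds, were in 3 of the 43 windows on either strand, 6.98%, against 0.371% of all 32851 windows. These windows belonged to Syn1, Unc13a and Ppfia3 and are shown 5′ to 3′ in the direction of the gene, with those letters or their reverse complement in capitals.
Syn1, chrX:20920869-20921168, minus strand: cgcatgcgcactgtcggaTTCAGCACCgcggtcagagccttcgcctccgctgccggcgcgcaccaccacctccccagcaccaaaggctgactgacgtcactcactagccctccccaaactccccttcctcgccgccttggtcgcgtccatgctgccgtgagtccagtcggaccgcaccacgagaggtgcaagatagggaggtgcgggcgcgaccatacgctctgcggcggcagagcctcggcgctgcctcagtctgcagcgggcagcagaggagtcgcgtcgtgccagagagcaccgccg
Unc13a, chr8:71671708-71672007, minus strand: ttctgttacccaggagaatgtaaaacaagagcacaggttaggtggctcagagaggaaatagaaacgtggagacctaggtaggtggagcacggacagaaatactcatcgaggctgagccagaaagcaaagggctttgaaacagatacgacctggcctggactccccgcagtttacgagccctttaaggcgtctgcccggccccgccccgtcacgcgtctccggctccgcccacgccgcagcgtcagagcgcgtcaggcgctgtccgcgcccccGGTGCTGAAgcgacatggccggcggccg
Ppfia3, chr7:45366970-45367269, minus strand: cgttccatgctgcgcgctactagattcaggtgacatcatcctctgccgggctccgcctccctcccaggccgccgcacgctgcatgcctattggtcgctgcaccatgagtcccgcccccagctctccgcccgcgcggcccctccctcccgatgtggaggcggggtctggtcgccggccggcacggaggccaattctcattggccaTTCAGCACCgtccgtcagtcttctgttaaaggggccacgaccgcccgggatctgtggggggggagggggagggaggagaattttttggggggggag
The cyclic AMP response element TGACGTCA was in the windows of Napa and Syn1, 4.65% of the member windows against 1.79% of all. The GC box GGGCGG was in windows of 28 members, 67.4% of windows against 35.7%. Member windows were also richer in G and C, with a median of 62% against 52.7%, so GC-rich letters are read beside that difference.

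The STAT core TTCNNNGAA, where N is any base, was searched because hIL-6 signals through STAT3. It was in 4.65% of member windows, 1 each of Syn2 and Sv2b, against 8.30% of all windows. Both windows lie at starts inside the gene, and the window at the outermost start of each gene held no match. The gene spans are chr6:115134902-115282006 for Syn2 and chr7:75114894-75309262 for Sv2b. Both matching windows are shown with the core in capitals.
Syn2, chr6:115238744-115239043, plus strand: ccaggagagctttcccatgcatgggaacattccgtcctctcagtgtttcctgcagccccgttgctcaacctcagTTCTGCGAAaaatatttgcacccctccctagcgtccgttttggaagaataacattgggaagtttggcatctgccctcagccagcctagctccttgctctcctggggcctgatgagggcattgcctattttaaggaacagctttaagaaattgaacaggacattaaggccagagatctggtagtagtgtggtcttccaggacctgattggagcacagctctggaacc
Sv2b, chr7:75219970-75220269, minus strand: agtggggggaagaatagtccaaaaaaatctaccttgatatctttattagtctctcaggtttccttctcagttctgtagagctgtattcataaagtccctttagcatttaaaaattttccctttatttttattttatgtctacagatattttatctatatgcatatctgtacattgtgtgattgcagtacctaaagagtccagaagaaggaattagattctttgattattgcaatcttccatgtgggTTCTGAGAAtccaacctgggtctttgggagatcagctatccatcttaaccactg
The TATA letters TATAAA were in 6.98% of member windows against 13.6% of all. The first windows of Syt1 and Syt2, a pair of calcium sensors with a ratio that varied between libraries, and of Synpr, the member with the largest difference between the treatment groups, follow with GC boxes on either strand in capitals. The Syt2 window held 4 of them, and the windows of Syt1 and Synpr held 1 each.
Syt1, chr10:109010926-109011225, minus strand: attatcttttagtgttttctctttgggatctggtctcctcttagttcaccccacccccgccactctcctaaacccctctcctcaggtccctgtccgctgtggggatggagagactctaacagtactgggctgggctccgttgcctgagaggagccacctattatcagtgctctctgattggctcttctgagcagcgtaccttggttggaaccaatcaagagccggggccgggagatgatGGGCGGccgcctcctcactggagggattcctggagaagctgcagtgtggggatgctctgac
Syt2, chr1:134646362-134646661, plus strand: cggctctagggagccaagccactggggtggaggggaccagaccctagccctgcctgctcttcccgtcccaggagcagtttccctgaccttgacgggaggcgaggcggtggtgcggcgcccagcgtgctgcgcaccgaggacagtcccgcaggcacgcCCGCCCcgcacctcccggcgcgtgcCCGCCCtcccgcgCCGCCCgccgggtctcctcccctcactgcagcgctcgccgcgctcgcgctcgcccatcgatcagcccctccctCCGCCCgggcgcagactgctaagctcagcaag
Synpr, chr14:13284530-13284829, plus strand: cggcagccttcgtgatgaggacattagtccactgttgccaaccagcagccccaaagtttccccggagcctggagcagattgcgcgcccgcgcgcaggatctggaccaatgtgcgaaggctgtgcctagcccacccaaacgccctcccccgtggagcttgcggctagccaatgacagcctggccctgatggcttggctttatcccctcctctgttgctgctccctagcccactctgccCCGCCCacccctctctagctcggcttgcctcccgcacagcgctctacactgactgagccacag
A match is a run of letters in these windows and not a site shown to be bound.

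**Figure D1:**
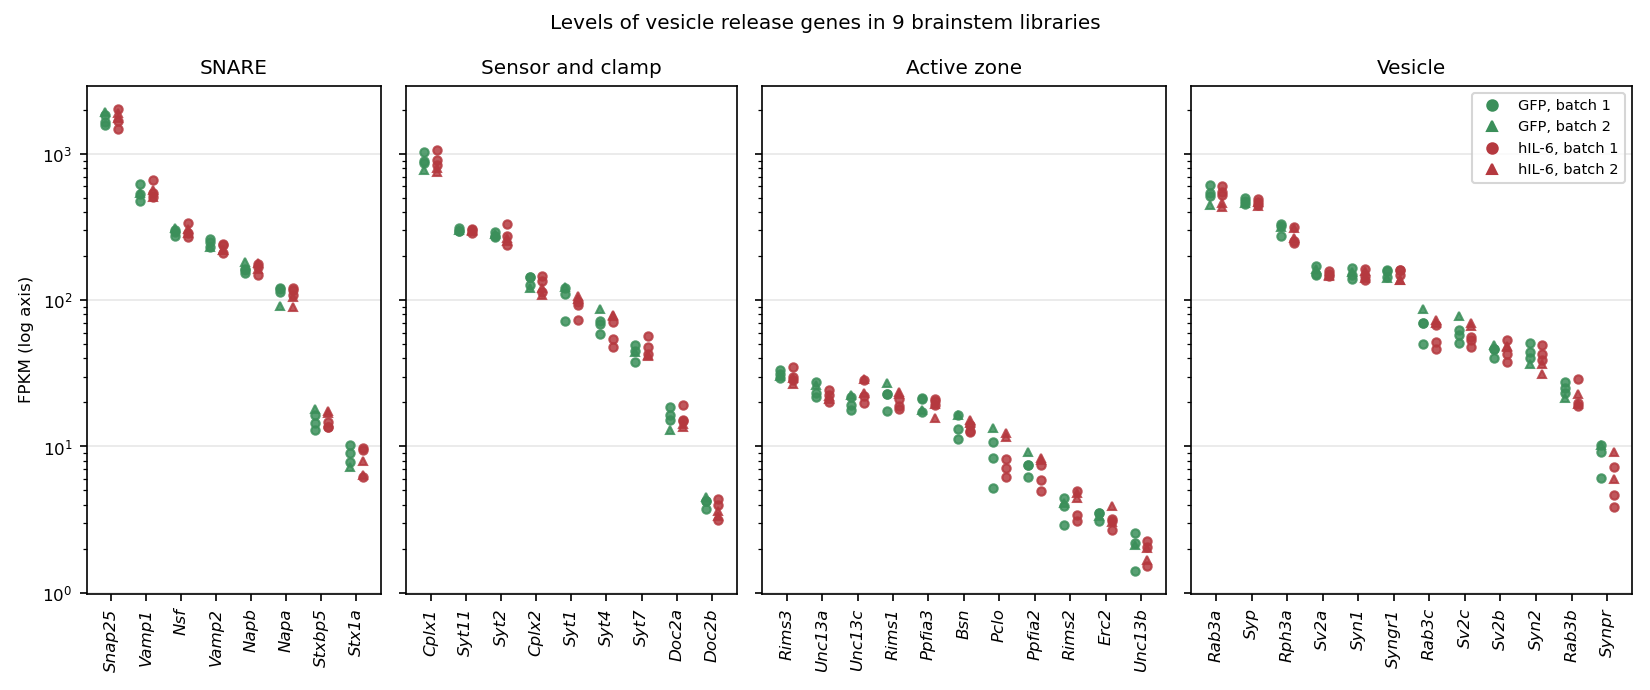
Level of each of the 40 members in FPKM on a log axis, by class, with 1 point per library, coloured by treatment and shaped by batch. Snap25 lies highest, at 1488 to 2026 FPKM, and active zone genes lie lowest.

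The machinery was abundant in the brainstem punches. Snap25, the plasma membrane SNARE (chr2:136713453-136782428, as are all gene spans from GENCODE M21 on GRCm38), had a mean of 1761 FPKM over the 9 libraries and ranked 20 in the whole table. Cplx1 followed at 883 FPKM, Vamp1 at 551 FPKM, Rab3a at 522 FPKM and Syp, the vesicle marker synaptophysin, at 467 FPKM. In all, 16 of 40 members lay above 100 FPKM and 8 lay under 10 FPKM. The median mean level was 53.2 FPKM, against 9.42 FPKM over the 13958 tested genes. By class the median was 200 FPKM for SNARE proteins, 99.8 FPKM for sensors, 108 FPKM for vesicle proteins and 14.1 FPKM for active zone proteins, none of which had a mean above 30.4 FPKM. Unc13b, a Munc13 priming protein, was the lowest member at 1.98 FPKM.

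Neighbours in the order of levels were often closer than their spread. Vamp1, with 480 to 662 FPKM, overlapped Rab3a, with 437 to 613 FPKM, and Syp, with 444 to 500 FPKM. Snap25 and Cplx1 did not overlap each other, at 1488 to 2026 FPKM and 756 to 1070 FPKM, and the lowest Cplx1 value lay above every Vamp1 value. The most even members were Syt11, a synaptotagmin that does not bind calcium, with a coefficient of variation of 2.31% over the libraries, and Syp with 4.13%. The most variable were Synpr with 32.6%, Pclo with 31.3% and Rab3c with 20.1%. The median coefficient of variation was 12.2%, against 12.6% for all tested genes.

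Setting hIL-6 against GFP libraries asks whether release genes in the brainstem differed after the cytokine virus was given in the cortex. No member passed the test. Most estimates lay near 0: 36 of 40 members had a 95% confidence interval within 0.5 of 0 on the log2 scale. The same held for 11899 of all 13958 tested genes. The median distance from estimate to interval end was 0.20 for the members and for all genes. Fold changes ran from -0.59 for Synpr to 0.23 for Unc13c, and 29 of 40 members lay below 0. In bulk tissue, fewer cells of a type and less RNA per cell cannot be told apart.

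The test was limma on log2(FPKM + 0.5), a scale that understates the change of low genes, with batch as a term and two-sided p-values adjusted by Benjamini-Hochberg over all 13958 tested genes. At an adjusted p of 0.05 it called 0 of 40 members, against a background of 0%, and the smallest adjusted p of any gene was 0.18. At an unadjusted p of 0.05 there was 1 member, Synpr, against 543 genes or 3.89% of all, and 1.41% of all that were lower. All 40 members had adjusted p = 0.999 by limma. The 72.5% of members below 0 stood against 51.1% of all tested genes. The median log2 fold change was -0.07 over the members and -0.0026 over all genes. The count below 0 was 30 without the pair low in Tph2 and 26 without the pair high in Gh, and it ran from 22 to 37 with 1 library left out. Leaving out GFP library 1 moved the median to -0.017, leaving out hIL-6 library 3 to -0.020 and leaving out GFP library 4 to -0.038. Leaving out GFP library 2 or hIL-6 library 2 gave 9 and 10 members at an unadjusted p of 0.05, and again none past adjustment. Counts over all genes rose in these refits too, to 1330 of 13959 and 849 of 13965, each a smaller share than among the 40 members. Without the pair low in Tph2 there were 7 members, against 1230 of 13956 genes. Without the pair high in Gh there were 0, against 336 of 13939.

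Within batch 1 the median was -0.038 with 27 of 40 below 0, and within batch 2 it was -0.084 with 34 of 40. Below 0 in both batches were 24 members, against 30.2% of all tested genes, and 3 were above 0 in both, against 28.1%. In batch 1, where the groups were equal in size, 0 of 40 members had groups that did not overlap, against 6.19% of all genes, 2.84% lower and 3.35% higher. Over all 9 libraries the count was 0, against 0.759%.

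**Figure D2:**
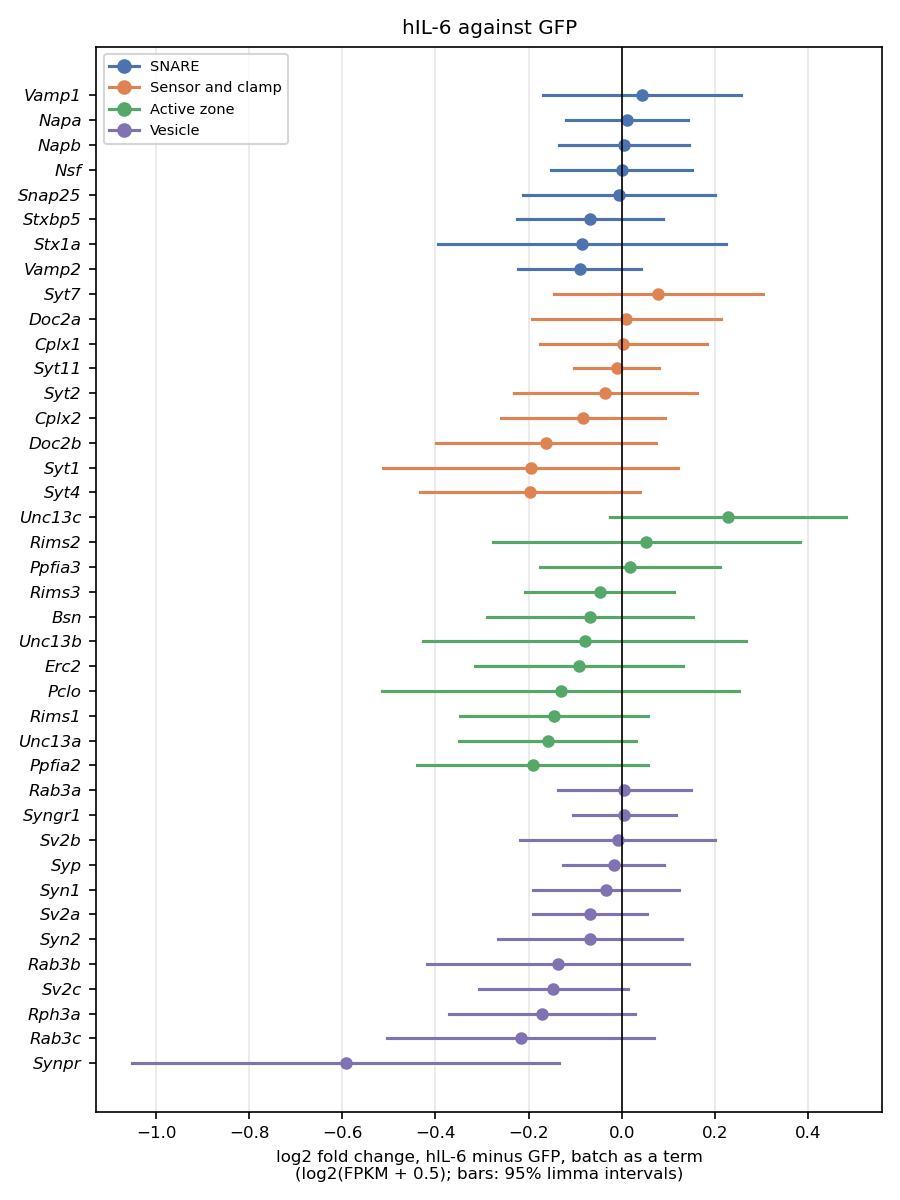
Log2 fold change of hIL-6 against GFP of each member from limma with batch as a term; bars are 95% confidence intervals. The bar of Synpr lies wholly below 0, from -1.05 to -0.13, and the others span 0.

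Among the SNARE proteins the groups overlapped throughout, with 5 of 8 below 0 and a median of -0.0031. Snap25 was at 1652, 1842, 1571 and 1934 FPKM in GFP libraries 1 to 4 and at 2026, 1687, 1488, 1890 and 1757 FPKM across hIL-6 libraries 1 to 5. Its highest and its lowest value were both hIL-6 libraries, and the log2 fold change was -0.0058 ± 0.092 (SE). Vamp1, the synaptobrevin of fast hindbrain synapses (chr6:125215551-125245964), was at 534, 619, 480 and 538 FPKM across the GFP libraries and 662, 544, 505, 566 and 511 FPKM across the hIL-6 libraries. It was highest in hIL-6 library 1 and GFP library 2, with a log2 fold change of 0.04 ± 0.10 (SE). Vamp2, the main synaptobrevin of the forebrain (chr11:69088490-69092384), was at 260, 230, 251 and 231 FPKM across the GFP libraries and 209, 244, 239, 222 and 221 FPKM across the hIL-6 libraries. Its lowest value was that of hIL-6 library 1, but hIL-6 libraries 2 and 3 lay above GFP libraries 2 and 4, and the fold change was -0.09 ± 0.06 (SE).

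Stx1a, a syntaxin of the plasma membrane, was at 10.3, 9.08, 7.79 and 7.25 FPKM across the GFP libraries and 6.22, 9.70, 9.45, 7.91 and 6.36 FPKM across the hIL-6 libraries. hIL-6 libraries 1 and 5 were lowest and GFP library 1 highest (log2 fold change -0.09 ± 0.14, SE). Stxbp5, tomosyn, which competes with VAMP for the other SNAREs, was at 16.4, 13.0, 14.6 and 18.1 FPKM across the GFP libraries and 14.6, 13.6, 13.6, 16.9 and 17.4 FPKM across the hIL-6 libraries. The 3 libraries of batch 2 were its highest, and the treatment groups overlapped (-0.07 ± 0.07, SE). Nsf, the ATPase that takes spent SNARE complexes apart, and its adaptors Napa and Napb lay between -0.00036 and 0.011 on the log2 scale. With hIL-6 library 1 left out Stx1a turned to 0.04, Vamp1 to -0.03, and Vamp2 and Snap25 were at -0.04 and -0.09. With the pair high in Gh left out Stxbp5 was at -0.0051, and with the pair low in Tph2 left out at -0.14. The class median was 0.023 with hIL-6 library 3 left out and -0.04 with hIL-6 library 1 left out.

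The calcium sensors had 6 of 9 members below 0 and a median of -0.035. That median was -0.10 with hIL-6 library 1 left out, -0.017 with GFP library 1 left out and 0.0081 with hIL-6 library 3 left out. Syt1, the fast sensor of the forebrain (chr10:108497650-109010982), was at 121, 72.4, 109 and 123 FPKM across the GFP libraries and 73.6, 97.01, 92.8, 102 and 107 FPKM across the hIL-6 libraries. GFP library 2 and hIL-6 library 1 were far below the rest, and the fold change was -0.20 ± 0.14 (SE). It was -0.34 with GFP library 2 left out, -0.12 with hIL-6 library 1 left out, -0.10 with GFP library 1 left out and -0.08 with the pair high in Gh left out. Syt2, the fast sensor of the hindbrain (chr1:134646677-134762593), was at 295, 277, 269 and 282 FPKM across the GFP libraries and 335, 276, 239, 264 and 254 FPKM across the hIL-6 libraries. Its highest and lowest values were hIL-6 libraries 1 and 3 (-0.04 ± 0.09, SE). Syt4, a synaptotagmin of neuropeptide vesicles, was at 72.5, 58.8, 68.4 and 86.8 FPKM across the GFP libraries and 48.1, 70.5, 54.2, 78.7 and 78.2 FPKM across the hIL-6 libraries. The 3 libraries of batch 2 were highest and hIL-6 library 1 lowest (-0.20 ± 0.11, SE).

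Doc2b, a high-affinity sensor of spontaneous release, was at 4.25, 4.24, 3.74 and 4.48 FPKM across the GFP libraries and 3.13, 4.38, 3.95, 3.63 and 3.34 FPKM across the hIL-6 libraries. hIL-6 libraries 1, 4 and 5 lay below every GFP library, and hIL-6 libraries 2 and 3 lay among them (-0.16 ± 0.11, SE). Its paralogue Doc2a had 12.9 to 19.1 FPKM over all libraries. Cplx1, the complexin of the hindbrain (chr5:108518554-108550024), was at 900, 1030, 865 and 780 FPKM across the GFP libraries and 1070, 909, 836, 800 and 756 FPKM across the hIL-6 libraries. Its highest values were hIL-6 library 1 and GFP library 2, its lowest the 3 libraries of batch 2, and the fold change was 0.0036 ± 0.080 (SE). Cplx2, the complexin of the forebrain (chr13:54371349-54383917), was at 145, 127, 145 and 122 FPKM across the GFP libraries and 136, 146, 114, 108 and 121 FPKM across the hIL-6 libraries, which overlapped (-0.08 ± 0.08, SE). Syt7, the slow sensor of asynchronous release, had a fold change of 0.08 and Syt11 of -0.01. With hIL-6 library 1 left out Syt2 was at -0.12, Syt4 at -0.12, Doc2b at -0.10 and Cplx1 at -0.06. With the pair low in Tph2 left out Cplx2 was at -0.14, and with the pair high in Gh left out it was at -0.04.

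Active zone proteins had 8 of 11 below 0 and a median of -0.08, which turned to 0.0067 without GFP library 1 and to 0.014 without GFP library 1 and hIL-6 library 4. Unc13a, the main Munc13 priming protein, was at 27.8, 21.7, 23.1 and 26.4 FPKM across the GFP libraries and 22.6, 24.4, 20.2, 21.2 and 22.0 FPKM across the hIL-6 libraries. GFP libraries 1 and 4 were highest and hIL-6 libraries 3 and 4 lowest (-0.16 ± 0.09, SE). Unc13c, the Munc13 of cerebellar granule cells, was at 17.8, 21.9, 19.1 and 22.4 FPKM across the GFP libraries and 28.5, 19.7, 22.0, 23.2 and 28.9 FPKM across the hIL-6 libraries. hIL-6 libraries 1, 4 and 5 lay above every GFP library, and hIL-6 libraries 2 and 3 lay among them (0.23 ± 0.11, SE). With hIL-6 library 1 left out the fold change of Unc13c was 0.13. Of 4 tested cerebellar granule cell markers 3 were above 0 and Cbln1 was at -0.12. Gabra6, at most 0.115 FPKM in any library, and Neurod1 were below the filter. The list of 6 summed to 21.2 to 59.7 FPKM across the GFP libraries and 32.9 to 122 FPKM across the hIL-6 libraries. In hIL-6 library 1, which had the highest sum, Slc17a7 alone was at 97.3 FPKM. The part of these markers in the Unc13c values was not tested.

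Ppfia2, liprin-alpha-2, a scaffold of the active zone, was at 7.46, 6.21, 7.46 and 9.22 FPKM across the GFP libraries and 4.95, 7.49, 5.91, 8.06 and 8.28 FPKM across the hIL-6 libraries. The libraries of batch 2 were highest and hIL-6 library 1 lowest (-0.19 ± 0.11, SE). Pclo, piccolo, one of the largest active zone proteins, was at 10.7, 5.22, 8.29 and 13.4 FPKM across the GFP libraries and 7.18, 6.15, 8.20, 12.3 and 11.6 FPKM across the hIL-6 libraries. The libraries of batch 2 were again highest and GFP library 2 lowest (-0.13 ± 0.17, SE). Its fold change was 0.0084 with GFP library 1 left out, -0.30 with GFP library 2 left out and -0.07 with hIL-6 library 2 left out. Unc13a was at -0.10 with GFP library 1 left out and again with GFP library 4 left out, and at -0.08 with the pair high in Gh left out; Ppfia2 was at -0.11 with hIL-6 library 1 left out. Of the others, Ppfia3 and the RIM gene Rims2 were above 0 at 0.02 and 0.05. Bassoon (Bsn), Erc2, Unc13b, Rims1 and Rims3 lay between -0.15 and -0.05.

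**Figure D3:**
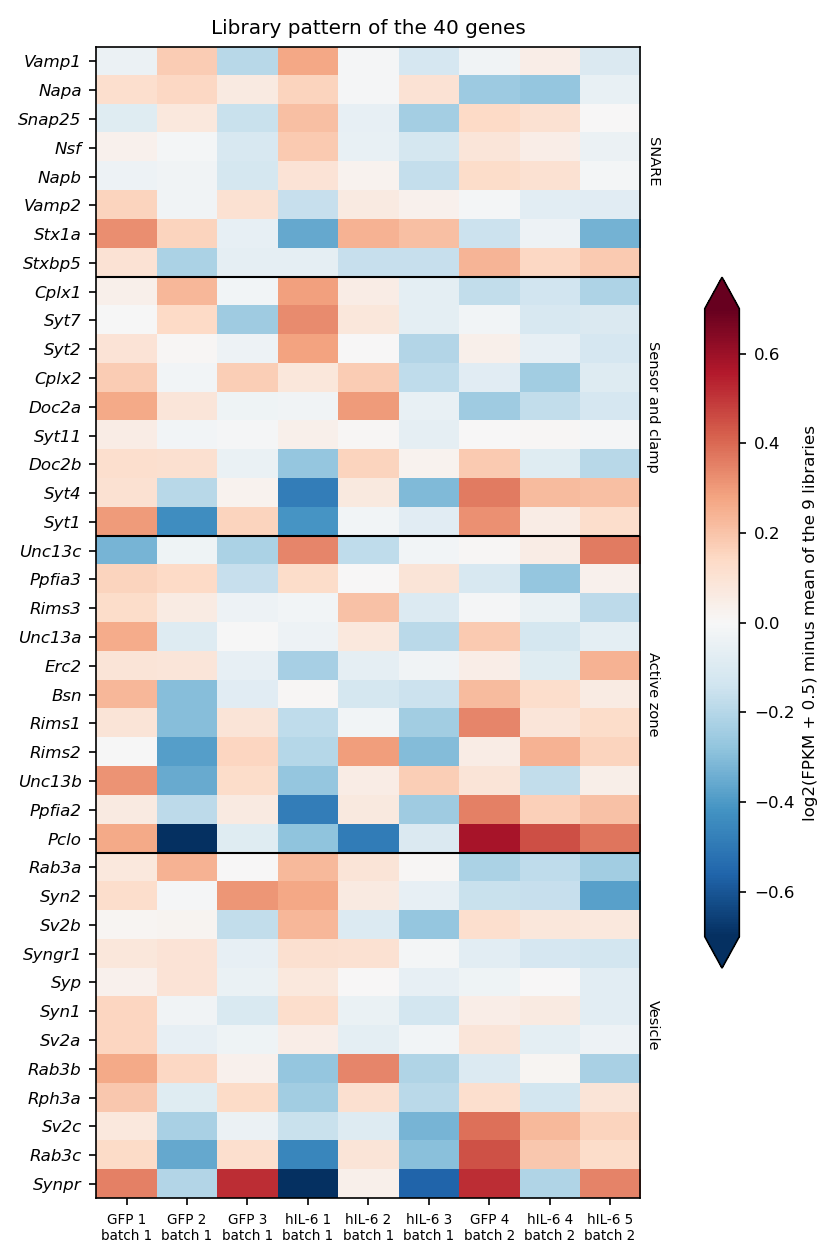
Each member in each library as the difference in log2(FPKM + 0.5) from its mean over the 9 libraries. hIL-6 library 1 is highest in 9 members and lowest in 10.

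Vesicle proteins had 10 of 12 below 0 and a median of -0.07. Synpr, synaptoporin, a synaptophysin relative (chr14:13284780-13616340), was at 9.14, 6.05, 10.3 and 10.3 FPKM across the GFP libraries and 3.88, 7.25, 4.63, 6.02 and 9.11 FPKM across the hIL-6 libraries. GFP libraries 1, 3 and 4 were highest and hIL-6 libraries 1, 3 and 4 lowest, with GFP library 2 among the hIL-6 values. The log2 fold change was -0.59 ± 0.21 (SE), with a 95% interval from -1.05 to -0.13 and adjusted p = 0.999 by limma. It was -0.66 within batch 1 and -0.45 within batch 2. Without the pair low in Tph2 it was -0.60, and without the pair high in Gh it was -0.47. In the refit without the pair high in Gh, Synpr no longer had an unadjusted p under 0.05 by limma.

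Rab3c, a Rab3 GTPase that tethers vesicles, was at 70.3, 49.8, 69.6 and 87.3 FPKM across the GFP libraries and 46.6, 68.1, 52.2, 72.9 and 70.0 FPKM across the hIL-6 libraries. Its lowest values were hIL-6 library 1, GFP library 2 and hIL-6 library 3 (-0.22 ± 0.13, SE). Rph3a, rabphilin, a Rab3 effector, was at 332, 274, 320 and 315 FPKM across the GFP libraries and 245, 314, 255, 266 and 310 FPKM across the hIL-6 libraries. hIL-6 libraries 1, 3 and 4 lay below every GFP library (-0.17 ± 0.09, SE). Sv2c, a vesicle glycoprotein found chiefly in the basal ganglia and brainstem, was at 63.0, 51.1, 58.1 and 78.2 FPKM across the GFP libraries and 53.7, 56.2, 47.6, 70.1 and 66.6 FPKM across the hIL-6 libraries. The libraries of batch 2 were highest (-0.15 ± 0.07, SE).

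Of the other vesicle proteins, Syp, Syn1, Syngr1, Sv2b and Rab3a lay between -0.03 and 0.0057, and the intervals of all 5 stayed within 0.5 of 0. Rab3b, Syn2 and Sv2a were at -0.14, -0.07 and -0.07. With GFP library 2 left out Rab3c was at -0.33 and the class median at -0.11. With the pair low in Tph2 left out Rph3a was at -0.18 and Sv2c at -0.21, and with the pair high in Gh left out they were at -0.10 and -0.11.

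Markers of cell types in the punches are given for the same contrast, and none of them passed the test. Lists of Purkinje, pituitary, choroid plexus, endothelial, meningeal and blood markers are not given here. Of 5 tested motor neuron markers 4 were below 0, with medians of -1.57 within batch 1 and 2.64 within batch 2. Chat, of that list, was at 4.96, 6.95, 4.92 and 0.46 FPKM across the GFP libraries. Across the hIL-6 libraries it was at 0.87, 3.13, 1.18, 7.61 and 3.96 FPKM. Of 13 pan-neuronal markers, 11 were below 0 with a median of -0.03, and their summed level was 4227 to 4730 FPKM across the GFP libraries and 4000 to 4577 FPKM across the hIL-6 libraries. All 7 serotonergic markers were below 0 with a median of -0.31, summing to 84.3 to 174 FPKM across the GFP libraries and 54.6 to 150 FPKM across the hIL-6 libraries. All 8 oligodendrocyte markers were above 0 with a median of 0.14, summing to 10444 to 12150 and 10758 to 14478 FPKM. All 8 microglia markers were above 0 with a median of 0.40, summing to 130 to 151 FPKM across the GFP libraries and 155 to 196 FPKM across the hIL-6 libraries. Of 7 astrocyte markers 5 were above 0 with a median of 0.06, summing to 768 to 1012 FPKM across the GFP libraries and 982 to 1490 FPKM across the hIL-6 libraries. Gfap, the filament of reactive astrocytes, is part of that sum. It was at 122, 41.7, 227 and 73.5 FPKM across the GFP libraries. Across the hIL-6 libraries Gfap was at 257, 328, 393, 278 and 564 FPKM. Its groups did not overlap, as for 0.759% of all tested genes. The astrocyte markers below 0 were Slc1a2 at -0.02 and Gja1 at -0.0024. All 5 markers of excitatory and inhibitory neurons were below 0 with a median of -0.14, summing to 363 to 447 and 354 to 399 FPKM. No marker of these lists was at 0 in every library. Their part in the member values was not tested.

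The pairs of paralogues divide the same step between related genes, and their ratios do not depend on the scaling of a library. Syt2 exceeded Syt1 in every library, by 2.29-fold to 4.55-fold. The log2 ratio was 1.28, 1.93, 1.30 and 1.20 across the GFP libraries and 2.18, 1.51, 1.36, 1.38 and 1.25 across the hIL-6 libraries. Vamp1 exceeded Vamp2 by 1.91-fold to 3.17-fold, and Cplx1 exceeded Cplx2 by 5.98-fold to 8.13-fold. All 3 ratios were highest in hIL-6 library 1 and GFP library 2, the pair with the least Tph2 and the most Slc17a7; the part of tissue makeup in this was not tested.

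The log2 ratio of Rab3c to Rab3a was lowest in the same pair, at -3.70 and -3.62 against -3.32 to -2.35 elsewhere. That of Synpr to Syp was lowest in hIL-6 library 1 at -6.99, followed by hIL-6 library 3 at -6.60 and GFP library 2 at -6.37, with -6.28 to -5.46 in the others. Unc13c and Unc13a were near parity, with a log2 ratio of -0.65 to 0.39. For all 15 ratios examined the treatment groups overlapped, and no test was run on them. The batch-adjusted difference of hIL-6 and GFP was 0.16 for Syt2 to Syt1, 0.40 for Unc13c to Unc13a and -0.62 for Synpr to Syp, against residual SDs of 0.33, 0.28 and 0.44. Without the pair low in Tph2 the differences were 0.13, 0.42 and -0.62.

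**Figure D4:**
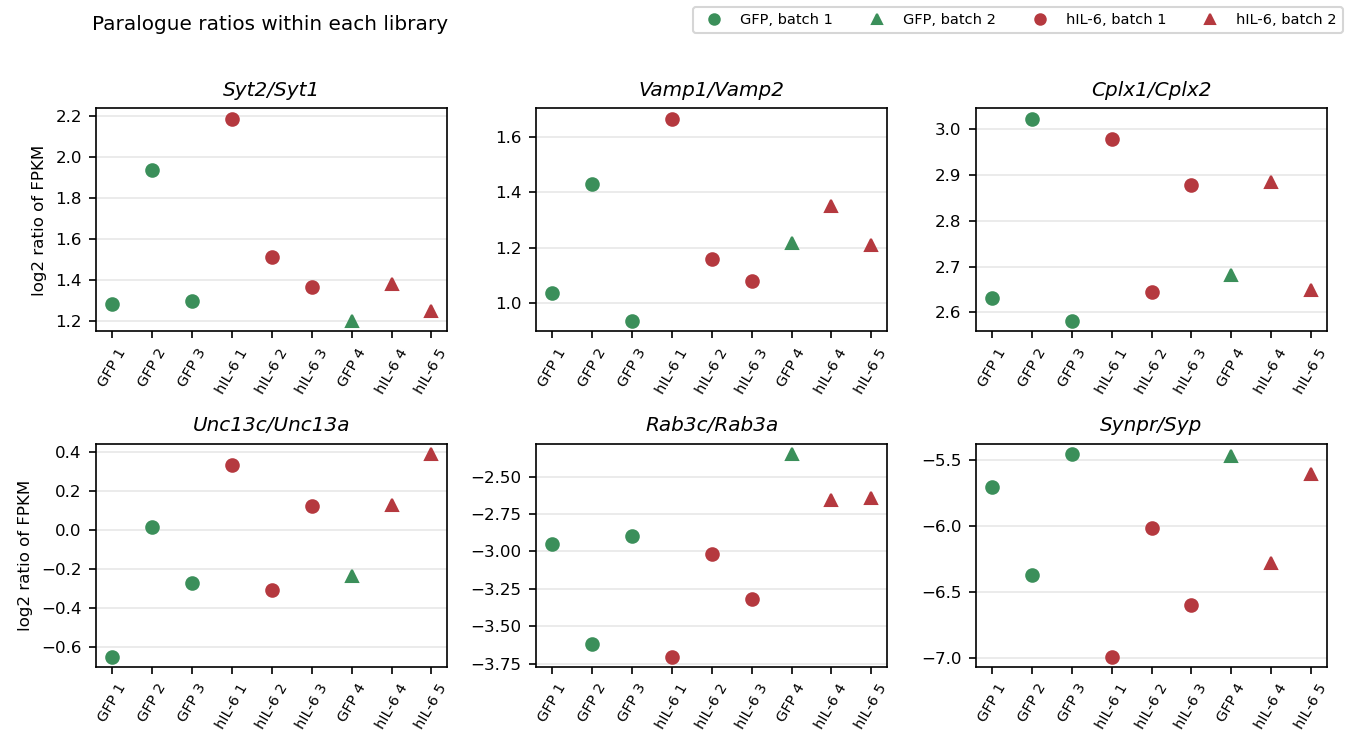
Log2 ratio of paralogue pairs in each library, 1 point per library, coloured by treatment and shaped by batch. The ratio of Syt2 to Syt1 runs from 1.20 to 2.18, and its highest points are hIL-6 library 1 and GFP library 2.

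Library by library, members went to both extremes at once in hIL-6 library 1. It held the highest value of 9 members, among them Snap25, Vamp1, Nsf, Syt2, Syt7 and Cplx1. It held the lowest value of 10, among them Vamp2, Stx1a, Syt4, Doc2b, Rab3c, Rph3a and Synpr. GFP library 2 held 2 highest and 7 lowest, the lowest including Syt1, Pclo, Bsn, Rims1 and Rims2. GFP libraries 1 and 4 each held 10 highest values, and hIL-6 library 3 held 9 lowest and no highest.

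Between the batches the release genes differed in both directions. Batch 2 against batch 1, tested in the same limma fit with adjustment over all genes, called 9 of 40 members, against a background of 22.5% of all tested genes, which is no larger a share among the members. Higher in batch 2 were 6 members, against 11.4% of all genes, and lower were 3, against 11.1%. Pclo was 0.72 ± 0.18 (SE) higher on the log2 scale, Syt4 0.43 ± 0.11, Sv2c 0.41 ± 0.08, Ppfia2 0.39 ± 0.12, Rims1 0.30 ± 0.10 and Stxbp5 0.29 ± 0.07. Adjusted p-values by limma ran from 0.0085 for Sv2c to 0.0469 for Rims1.

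The 3 lower members were Rab3a, Syn2 and Napa. Rab3a, the main Rab of synaptic vesicles, was at 544, 613 and 518 FPKM in the GFP and 606, 552 and 520 FPKM in the hIL-6 libraries of batch 1. In batch 2 it was at 444 FPKM in the GFP library and 459 and 437 FPKM in the hIL-6 libraries, all below batch 1, and it fell by 0.32 (adjusted p = 0.0120 by limma). In the same order Napa was at 119, 121, 114, 122, 109 and 117 FPKM in batch 1 and at 91.7, 90.4 and 105 FPKM in batch 2. Its 3 values of batch 2 were the lowest, and it fell by 0.29. Syn2, a synapsin that binds vesicles to each other, was at 44.4, 40.5, 50.7, 49.4, 42.7 and 39.2 FPKM in batch 1 and at 36.6, 36.4 and 31.2 FPKM in batch 2. Again the batches did not overlap, and it fell by 0.34. Rims1, a RIM scaffold, was among the higher members, at 22.8, 17.4, 22.9, 18.9, 21.2 and 18.04 FPKM in batch 1 and at 27.3, 22.8 and 23.5 FPKM in batch 2. There the batches overlapped, through hIL-6 library 4.

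The batch difference moved with transcript length, taken from the longest coding transcript in the annotation. The median was -0.24 for the 5 members under 2500 nt, -0.02 for the 19 from 2500 to under 5000 nt and 0.16 for the 16 of 5000 nt or more. All tested genes had -0.11, 0.010 and 0.16 in the same classes. Of the 6 higher members, 5 were among the 16 of 5000 nt or more. Over all tested genes of that length, 700 of 2839 were called higher. The part of transcript length was not tested. Batch calls rested on single libraries of the smaller batch: with GFP library 4 left out 0 members passed, with hIL-6 library 4 left out 2, and with hIL-6 library 5 left out 3. Leaving out GFP library 1 and hIL-6 library 4 together also gave 0. In the comparison of hIL-6 with GFP, 14 of 16 members of 5000 nt or more were below 0, 87.5%, against 64.2% of all genes of that length.

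**Figure D5:**
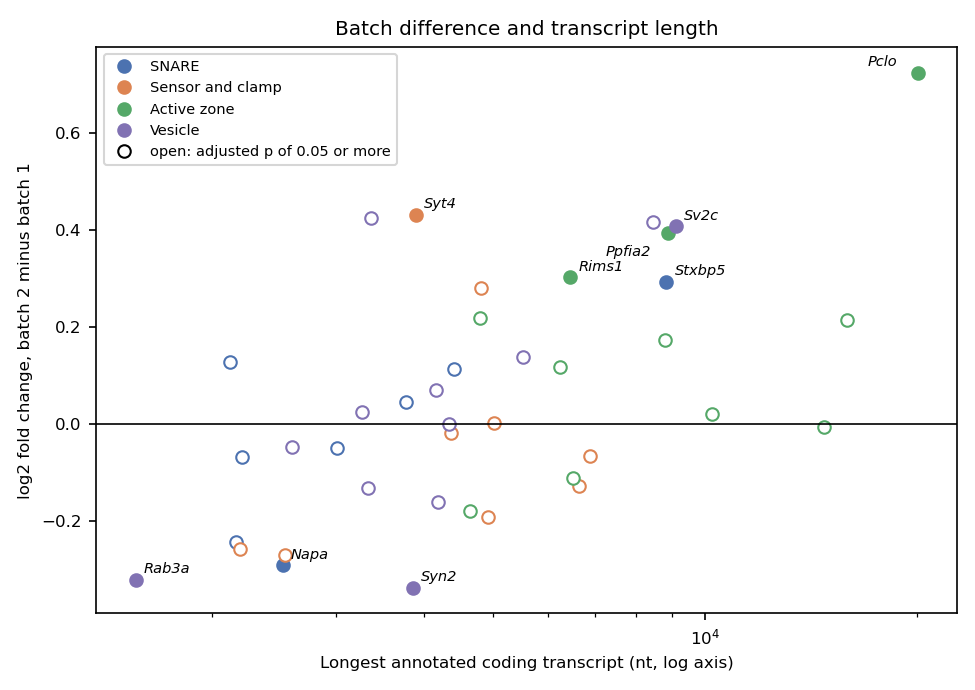
Log2 difference of batch 2 against batch 1 for each member against the length of its longest annotated coding transcript in nt on a log axis; filled points passed the threshold. Members of 5000 nt or more have a median of 0.16 and those under 2500 nt a median of -0.24.

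The treatment effect was also compared between the batches. No member passed the interaction test of limma, against 2 of 13958 genes, a background of 0.0143%, and none reached an unadjusted p of 0.05, against 2.13% of all genes. Batch 2 holds 1 GFP library, so its difference rests on that library.

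The wider release pathway, from a list of 61 further genes of which 59 were in the table and 57 were tested, gave 34 below 0, 59.6%, and a median of -0.03, with 0 called against a background of 0%. Snapin, a SNAP25 partner, had the smallest p, with 0.11 ± 0.04 (SE). Syt5, a synaptotagmin, was at -0.37, the calcium channel subunits Cacnb4 at -0.19 and Cacna1a at -0.22, Rab3gap1 at 0.12 and Cask, a scaffold, at -0.13, all with adjusted p = 0.999 by limma. Genes of presynaptic calcium channels and neurexins had a median of -0.12 with 7 of 10 below 0. Between the batches, 12 of the 57 passed, against 22.5% of all genes, 9 higher and 3 lower.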

How the data were processed

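Per the labels' protocols, RNA from punches in a stabilising solution was isolated on columns and made into strand-specific poly(A) libraries. kallisto, DESeq2 and the build mm10 are named in the submitters' processing notes; the sources used here state no version, annotation or scaling. The authors deposited FPKM in a single column for each library; kallisto assigns fragments by likelihood, so close paralogues could share fragments. Library sums were 567971 to 635729 FPKM.

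From these, values of genes averaging 0.5 FPKM or more were transformed to log2(FPKM + 0.5). The model was fitted in R 4.3.3 by limma 3.58.1, allowing for a trend of variance with level and leaving 6 residual degrees of freedom; 13958 genes were tested, adjusted together at 0.05. The procedure was tested on simulated data. Python 3.11.15 made the figures. Gene spans are from GENCODE M21 and promoter windows from RefSeq, both on GRCm38.

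The members and lists were chosen with earlier results of these data known. Values in every library are given for members past a threshold, the 3 of each class with the smallest p, the 4 of largest spread, 3 paralogue pairs and Snap25; of the wider list, the 6 with the smallest p are named. Alternatives changed the pseudocount, filter, scaling, batch term, weights and libraries; those without both libraries low in serotonergic or high in pituitary genes were chosen after seeing the data. No count test was run, because fragments of genes with several transcripts could not be recovered.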

Additional observations from a re-analysis of the deposited data

Results flagged for a closer look

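Doc2a, a high-affinity calcium sensor of release, was at 19.1 FPKM in hIL-6 library 2, apart from the other 4 hIL-6 libraries at 13.6 to 15.2 FPKM. The gap was 0.718 of the range of the group, above the 95% critical value of 0.71 for 5 samples. GFP libraries spanned 12.9 to 18.6 FPKM. Of 80 group checks this was the 1 that stood out. Chance gives about 1 in 20, so the single flag is no more than chance would give.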

How the results depend on the processing

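No member passed the threshold for hIL-6 against GFP under any of the 21 alternatives. Genes past it numbered 0 in the reported fit, 9 with library weights and 0 to 2 with 1 library left out, with 2 without hIL-6 library 2. With library weights 11 members had an unadjusted p under 0.05, against 1837 of all 13958 genes. The lowest adjusted p of a named member by limma was then 0.263. The member median ran from -0.076 to -0.017 and the count below 0 from 22 to 37. The direction of a named member changed in 23 of 399 refits, all in 6 of the 19 members, and the SNARE median, near 0, changed sign in some.

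For batch 2 against batch 1, 3138 genes and 9 members passed. With library weights 5336 and 14 passed, and without GFP library 1 and hIL-6 library 4 only 68 and 0. With 1 library left out genes ran from 29 to 3370 and members from 0 to 12. The interaction called 2 genes, 1 with quantile normalization, 0 without either pair of libraries that stood apart and 0 to 3 with 1 library left out. Without GFP library 4 batch 2 held no GFP library, so the interaction could not be fitted. The cause of these shifts was not tested.

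Replicate numbers were not treated as pairs in the reported fit. Within batch 1, deviations of same-numbered libraries correlated at 0.019, -0.106 and 0.270, and those of differently numbered libraries at -0.298 to 0.277. Such correlations cannot show whether the samples were paired. With a replicate block, 0 genes and 0 members passed, 30 members were below 0 and the median was -0.045.

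For an assumed transcript of 2000 nt, depth would put a counting error of 7.33% to 9.92% on the lowest member; a longer transcript would have a smaller one. With 4 and 5 libraries the median interval reached 0.20 to either side on the log2 scale, which limits the differences that could be detected.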
